A study of Mus musculus with 18 samples.

Results

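The Hox cluster genes were followed through the growth plate of cultured mouse tibiae and compared between C-type natriuretic peptide (CNP), a peptide that stimulates endochondral bone growth, and vehicle. Members were all genes of the array annotation whose symbol names a numbered gene of the Hoxa, Hoxb, Hoxc or Hoxd cluster. The rule found 35 genes on 51 of the 45037 probe sets of the array. Of these probe sets, 30 were bright enough on average to be tested and 21 were dim. The RefSeq gene table lists 39 such genes, and the other 4 were not analysed here.

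Tibiae of CD1 mouse embryos of both sexes at E15.5 were kept in minimal medium for 6 days. They received CNP at 1e-06 M or vehicle (BSA in HCl, given in the labels as 1 mM) on days 1, 3 and 5. On day 6 the bones, 24 tibiae per treatment, were cut under the microscope into a resting/proliferating, a hypertrophic and a mineralized zone, and total RNA of the pooled pieces was put on Affymetrix Mouse430_2 arrays. Cultures 2, 3 and 4 of each treatment gave 18 arrays, 3 for each of 6 groups. The groups, each of CD1 tissue with no allele or transgene named, were CNP and vehicle in the resting/proliferating zone, CNP and vehicle in the hypertrophic zone, and CNP and vehicle in the mineralized zone. For the array titled as vehicle culture 4, resting/proliferating zone, another label field names CNP, and the title was followed.

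Hox genes encode homeodomain transcription factors that lie in 4 clusters, on mouse chromosomes 6 (Hoxa), 11 (Hoxb), 15 (Hoxc) and 2 (Hoxd). Along each cluster the paralogue number follows the position of expression along the body axis, with low numbers anterior and high numbers posterior. In the mouse limb the Hoxa and Hoxd genes of groups 9 to 13 pattern the segments from the shoulder or hip outwards: group 10 is known for the upper segment, group 11 for the segment that holds the tibia, and group 13 for the foot. Hox proteins bind DNA through a short core with the letters TAAT, often together with cofactors of the TALE class such as the Pbx, Meis and Pknox proteins.

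Markers of the zones were checked first. All 6 tested markers of hypertrophic chondrocytes rose in the hypertrophic against the resting/proliferating zone. All 7 markers of macrophages and osteoclasts rose in the mineralized against the hypertrophic zone. The summed signal of the chondrocyte list of the resting and proliferating stages was 8142 to 13362 in the mineralized zone, against 28211 to 42595 in the resting/proliferating zone. In the hypertrophic against the resting/proliferating zone 1 of its 7 tested genes was higher and 2 were lower, with a median of -0.01, so this list did not separate those zones. Hybridization took place on 2 days, with culture 3 of both treatments on one and cultures 2 and 4 on the other. In 4 arrays the fluidics log ends as aborted. In bulk RNA, fewer cells of a type and less RNA per cell cannot be told apart.

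The members were unevenly bright. The Hoxa cluster had 12 tested probe sets and 4 dim ones, and each of the Hoxb, Hoxc and Hoxd clusters had 6 tested. The 30 tested probe sets covered 20 genes by a probe set of their own, and 13 genes had only dim probe sets. Another 2 genes were covered only by probe sets that name them with a neighbour: 1 tested probe set names Hoxb8 and Hoxb7, and 1 tested and 1 dim name Hoxd4 and Hoxd3. Dim meant a mean over the 18 arrays in the lowest 40% of all probe sets, which corresponds to a normalized signal of 63.5.

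The letters upstream of some of the genes with zone differences are shown so that the differences can be set beside them. RefSeq promoters (build GRCm38.p6) were found for 21 of the 35 genes. Of genes called between zones, Hoxb2, Hoxc5, Hoxc8 and Hoxc10 had none, and that of Hoxd9 is not printed. The 250 bases before the transcription start are printed 5′ to 3′ for Hoxa9, for both starts of Hoxa10, for Hoxa11 and for Hoxd8, with the homeodomain core TAAT, read on either strand, in capitals.
Hoxa9, chr6:52227371-52227620, minus strand: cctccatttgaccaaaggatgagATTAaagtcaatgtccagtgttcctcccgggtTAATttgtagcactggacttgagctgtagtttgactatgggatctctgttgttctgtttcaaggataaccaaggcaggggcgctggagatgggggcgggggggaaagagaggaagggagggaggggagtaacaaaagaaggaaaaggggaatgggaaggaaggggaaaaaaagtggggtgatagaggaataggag
Hoxa10 downstream start, chr6:52234940-52235189, minus strand: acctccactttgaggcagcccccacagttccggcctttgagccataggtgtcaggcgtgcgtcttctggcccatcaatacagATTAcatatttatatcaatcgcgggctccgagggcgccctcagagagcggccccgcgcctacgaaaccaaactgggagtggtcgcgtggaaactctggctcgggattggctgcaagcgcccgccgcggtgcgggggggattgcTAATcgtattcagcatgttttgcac
Hoxa10 upstream start, chr6:52240855-52241104, minus strand: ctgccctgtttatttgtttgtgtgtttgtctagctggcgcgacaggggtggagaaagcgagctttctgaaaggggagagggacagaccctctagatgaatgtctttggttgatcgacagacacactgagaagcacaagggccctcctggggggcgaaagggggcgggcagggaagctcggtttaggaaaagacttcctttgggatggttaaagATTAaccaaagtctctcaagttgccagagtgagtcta
Hoxa11, chr6:52245811-52246060, minus strand: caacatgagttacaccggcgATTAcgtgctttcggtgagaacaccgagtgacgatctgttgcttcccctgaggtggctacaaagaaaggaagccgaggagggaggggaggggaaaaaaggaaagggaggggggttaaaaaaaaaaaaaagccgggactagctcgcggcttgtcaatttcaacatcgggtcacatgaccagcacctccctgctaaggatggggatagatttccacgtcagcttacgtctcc
Hoxd8, chr2:74704365-74704614, plus strand: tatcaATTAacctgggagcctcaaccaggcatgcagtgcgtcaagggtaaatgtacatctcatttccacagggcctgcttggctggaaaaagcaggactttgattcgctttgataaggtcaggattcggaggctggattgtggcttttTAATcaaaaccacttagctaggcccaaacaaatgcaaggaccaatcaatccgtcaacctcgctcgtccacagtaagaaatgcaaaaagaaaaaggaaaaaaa

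The core TAAT stood in the promoters of 15 of the 21 Hox genes and in 55.3% of 27025 mouse promoters of the same length. Hoxa9 and Hoxd8 held it on both strands, as did the downstream start of Hoxa10, while the upstream start of Hoxa10 and Hoxa11 each held a single copy. No match was found in these stretches for the Hox and Pbx motif TGATTNAT, the Meis motif TGACAG or the posterior Hox motif TTTATNG, which stood in 807, 4316 and 2745 of all 27025 promoters on either strand. The stretches also differed in CpG number, with 3 in Hoxa9, 6 in Hoxd8, 13 in Hoxa11, and 20 and 7 at the downstream and upstream starts of Hoxa10. A match of letters is no binding site, and no array value bears on binding.

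The posterior genes Hoxa9, Hoxa10, Hoxa11 and Hoxc10 fell in the hypertrophic against the resting/proliferating zone, by 2.02-fold to 3.21-fold in the probe set of each gene with the highest mean. In all, 9 of the 30 probe sets, from 7 genes, were called lower and 0 were called higher, with limma's adjusted p under 0.05 over 27022 probe sets, and 33.7% of all probe sets tested were called in this comparison (16.8% lower). The share of members called, 30%, is near that background. The median log2 difference was -0.34 over the members and -0.02 over all probe sets tested. Within the tested members most calls lay at the posterior end. Of the 8 probe sets of paralogue groups 9 to 11, 7 were lower, of 10 in groups 5 to 8, 2 were lower, and of 10 in groups 1 to 4, 0 were called. This grouping was made with the values known and was not tested. It leaves out the dim probe sets. With no filter on these, Hoxc4 of group 4 was also lower (-0.88 ± 0.25, limma adjusted p = 0.0196). The same held for Hoxd10 of group 10 (-0.84 ± 0.25, adjusted p = 0.0257).

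Hoxa9 (1455626_at), a posterior limb gene also known from blood stem cells, had signals of 1517, 1682 and 1841 (lowest, median and highest of 6 arrays) in the hypertrophic zone, against 3742, 4119 and 4236 in the resting/proliferating zone. The zones did not overlap, and every culture showed the drop. The log2 difference was -1.27 ± 0.07 (SE, 6 cultures, limma adjusted p = 2.39e-09). The other Hoxa9 probe set (1421579_at) had 120, 221 and 277, against 334, 360 and 379, again without overlap, and differed by -0.76 ± 0.16 (adjusted p = 0.00182).

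Hoxa10 (1431475_a_at), which patterns the upper limb segment and the uterus, had the largest fall among the members. Its signals were 538, 734 and 1099 in the hypertrophic zone, against 1180, 2772 and 3162 in the resting/proliferating zone. The ranges did not overlap, although the array of CNP culture 4 in the resting/proliferating zone, at 1180, came close. The log2 difference was -1.68 ± 0.14 (SE, limma adjusted p = 2.65e-07). A further Hoxa10 probe set (1446408_at) moved the same way, with 46.5, 70.2 and 86.1 in the hypertrophic zone, against 116, 182 and 228 in the resting/proliferating zone (-1.24 ± 0.17, adjusted p = 4.72e-05).

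Hoxa11 (1420414_at), the Hoxa gene of the tibia's own segment, had 392, 410 and 525 in the hypertrophic zone, against 829, 916 and 1194 in the resting/proliferating zone. Here too the zones stood apart in all 6 cultures, with a log2 difference of -1.12 ± 0.11 (SE, limma adjusted p = 2.22e-06). Its partner Hoxd11 (1450584_at) was dim, between 3.58 and 18.9 on all 18 arrays, so no zone difference could be read for it. Hoxc10 (1439798_at), a gene of the hind limb, had 207, 266 and 405 in the hypertrophic zone, against 475, 550 and 744 in the resting/proliferating zone. The ranges did not overlap and the difference was -1.02 ± 0.15 (adjusted p = 0.000101).

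**Figure D1:**
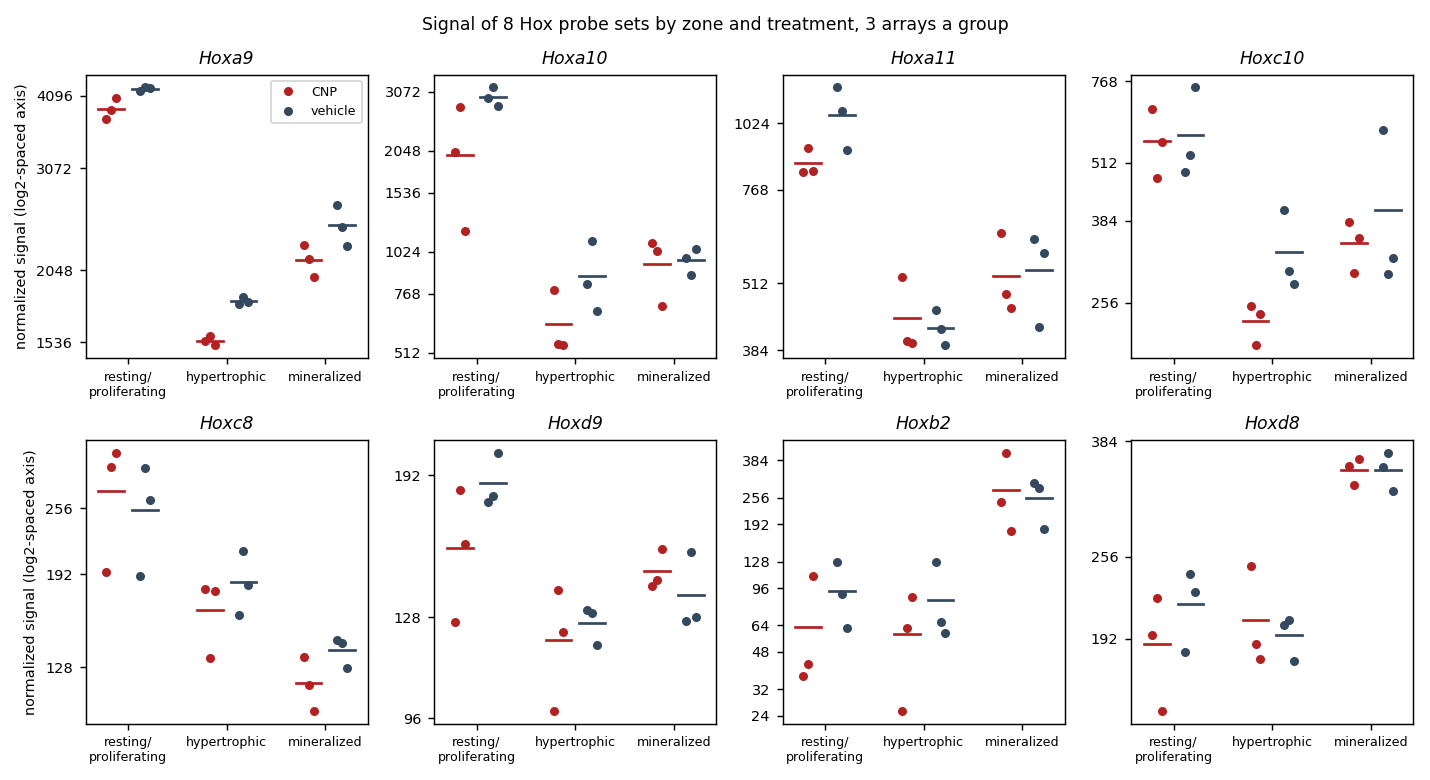
Normalized signal (log2-spaced axis) of 8 Hox probe sets in each array by zone, with CNP left of vehicle, dots for the 3 arrays of a group and bars for their mean. Hoxa9, Hoxa10, Hoxa11 and Hoxc10 had their highest means in the resting/proliferating zone, while Hoxb2 and the Hoxd8 probe set shown reached 179 to 417 and 323 to 369 in the mineralized zone, above all other arrays.

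Smaller falls, with overlapping ranges, were called for 3 more genes. Hoxc8 (1452412_at), known for patterning the thoracic skeleton, had 133, 179 and 213 in the hypertrophic zone, against 190, 285 and 326 in the resting/proliferating zone (-0.54 ± 0.15, limma adjusted p = 0.0118). Hoxd9 (1419126_at), a limb gene of group 9, had 98.0, 126 and 138, against 126, 179 and 205 (-0.43 ± 0.12, adjusted p = 0.0118). Hoxc5 (1439885_at) had 32.5, 76.9 and 96.3, against 72.0, 119 and 204 (-0.64 ± 0.23, adjusted p = 0.0449). These 3 calls were lost without culture 3 of both treatments and also without culture 4, each time leaving 2 of the 6 cultures out. Without culture 3 of both treatments, which leaves the cultures of 1 hybridization day, the log2 differences were -0.41, -0.44 and -0.33 (adjusted p = 0.162, 0.0739 and 0.308). Without culture 4 they were -0.48, -0.38 and -0.78 (adjusted p = 0.122, 0.133 and 0.0936). Leaving out culture 2 kept the Hoxc8 and Hoxd9 calls, while that of Hoxc5 was lost (-0.81, adjusted p = 0.06). With no normalization between arrays, Hoxc8 and Hoxd9 were not called (-0.57 and -0.44, adjusted p = 0.118 and 0.295). With the fluidics run as a block, Hoxd9 was not called (-0.41, adjusted p = 0.103). The Hoxc5 call was lost in 22 of 31 settings, with differences between -0.81 and -0.33. A dim Hoxc5 probe set (1456301_at) had the opposite sign between these zones with no filter on dim probe sets (0.50 ± 0.22, adjusted p = 0.131), and it was lower in the mineralized against the hypertrophic zone (-0.97 ± 0.22, adjusted p = 0.00388).

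Hoxc9 (1449867_at) was the one tested probe set of groups 9 to 11 that was not called, with 140, 170 and 241 in the hypertrophic zone, against 69.3, 146 and 177 in the resting/proliferating zone (0.36 ± 0.17, limma adjusted p = 0.116). Group 13 was measured by 2 tested probe sets. Hoxa13 (1422336_at), a gene of foot and hand, had a median of 91.9 and a highest signal of 109 in the hypertrophic zone, against 90.0 and 100.2 in the resting/proliferating zone, and Hoxd13 (1440626_at) had 32.3 to 125, against 98.0 to 148. Neither was called (-0.05 ± 0.16 and -0.45 ± 0.22, adjusted p = 0.856 and 0.141). By cluster, 5 of 12 Hoxa, 0 of 6 Hoxb, 3 of 6 Hoxc and 1 of 6 Hoxd probe sets were lower.

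The 10 tested probe sets of groups 1 to 4, of the genes that pattern hindbrain and neck, were not called between these zones, and probe sets of 1 gene disagreed in sign. For Hoxa3 the log2 differences were -0.40 (1431392_at), -0.51 (1427433_s_at) and 0.17 (1452421_at), and for Hoxb4 they were 0.33 and -0.42. Hoxa2 (1419602_at) differed by -0.42 ± 0.17 (limma adjusted p = 0.0695). Of groups 5 to 8, Hoxc6 differed by 0.16 and 0.28 in its tested probe sets and Hoxb7 by -0.09, none of them called. Dim members without a zone call included Hoxb1, between 18.8 and 171 over all arrays, Hoxb9, between 5.37 and 57.8, and Hoxc13, between 15.7 and 95.4.

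Between the hypertrophic and the resting/proliferating zone, the marker list of perichondrium, tendon and fibroblasts moved with the members called lower. Its 7 genes summed to 9745 to 17219 in the hypertrophic zone, against 21605 to 25476 in the resting/proliferating zone, with 5 of the 7 called lower and 1 higher, and none of them at 0 on any array. The list of resting and proliferating chondrocytes, at 31900 to 37159 against 28211 to 42595, overlapped between these zones. Endothelial markers summed to 390 to 493, against 552 to 900, and skeletal muscle markers to 517 to 1235, against 641 to 852. The actin 3'/5' ratio, a sign of RNA quality, was 2.20 to 3.93 in the hypertrophic zone, against 2.44 to 4.85 in the resting/proliferating zone. The part of these in the Hox differences was not tested.

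In the mineralized zone, Hoxb2 and Hoxd8 rose above both other zones, Hoxa9 and Hoxa10 stood somewhat above the hypertrophic zone, and Hoxc8 stood below it. Against the hypertrophic zone, 5 of the 30 probe sets were called higher and 1 lower, where 40.9% of all probe sets tested were called (19.6% higher and 21.3% lower). The members' median difference was 0.19, against -0.02 over all probe sets tested. Without normalization between arrays, where the median of all probe sets tested moved to 0.44, 17 members were called higher and 0 lower.

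Hoxb2 (1449397_at), known for patterning the hindbrain, had 179, 264 and 417 in the mineralized zone, against 25.3, 64.4 and 127 in the hypertrophic zone. Every array of the mineralized zone stood above every array of the other zones, where the signals lay around the limit for dim probe sets. The log2 difference was 1.74 ± 0.23 (SE, 6 cultures, limma adjusted p = 2.01e-05).

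Hoxd8 (1431099_at), a gene of the middle of the cluster, had 323, 351 and 369 in the mineralized zone, against 177, 195 and 248 in the hypertrophic zone. These ranges did not overlap and the difference was 0.76 ± 0.12 (SE, limma adjusted p = 0.00013). The second Hoxd8 probe set (1433638_s_at) had 188, 255 and 323, against 82.6, 121 and 324, where the array of CNP culture 2 alone reached 324 in the hypertrophic zone. It differed by 0.87 ± 0.20 (adjusted p = 0.00238), in 5 of 6 cultures.

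Hoxa9 (1455626_at) had 1993, 2257 and 2658 in the mineralized zone, against 1517, 1682 and 1841 in the hypertrophic zone, without overlap (0.44 ± 0.07, limma adjusted p = 7.22e-05). With each array centred on its median instead, this difference was 0.23 (adjusted p = 0.0774). Hoxa10 (1431475_a_at) had 708, 1005 and 1091, against 538, 734 and 1099, with overlap (0.38 ± 0.14, adjusted p = 0.0416). Its call held in 12 of 32 other settings, over which the difference was between 0.25 and 0.80.

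Hoxc8 was the exception in direction, with 106, 131 and 144 in the mineralized zone, against 133, 179 and 213 in the hypertrophic zone (-0.39 ± 0.15, limma adjusted p = 0.0499). The call held in 12 of 32 other settings, and without normalization between arrays the difference was 0.13. Hoxa11, at 424, 537 and 637 against 392, 410 and 525, did not pass (0.29 ± 0.11, adjusted p = 0.053).

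Markers of other cell types also moved between these zones. Those of macrophages and osteoclasts summed to 35543 to 38491 in the mineralized zone, against 3373 to 8463 in the hypertrophic zone. Endothelial markers summed to 2452 to 2937, against 390 to 493, and the list of perichondrium, tendon and fibroblasts to 21963 to 24344, against 9745 to 17219. The osteoblast list summed to 27041 to 39565, against 17890 to 27759. The actin ratio was 1.59 to 1.87 in the mineralized zone, below every array of the hypertrophic zone at 2.20 to 3.93. None of the genes of these lists was at 0, and their part in the Hox differences was not tested.

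Set against the resting/proliferating zone, the mineralized zone had lower signals of Hoxa9, Hoxa10, Hoxa11, Hoxc5, Hoxc8 and Hoxc10 and higher signals of Hoxb2 and Hoxd8. The counts were 3 probe sets higher and 8 lower of 30, where 46.9% of all probe sets tested were called (22.3% higher and 24.6% lower). Without normalization between arrays, where the median of all probe sets tested moved to 0.41, the split was 9 higher and 2 lower. By this comparison 6 of the 8 probe sets of groups 9 to 11 were lower.

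Hoxa10 (1431475_a_at) again differed most among those lower, with 708, 1005 and 1091 in the mineralized zone, against 1180, 2772 and 3162 in the resting/proliferating zone (-1.31 ± 0.14, limma adjusted p = 1.78e-06). Hoxa9 (1455626_at) had 1993, 2257 and 2658, against 3742, 4119 and 4236 (-0.82 ± 0.07, adjusted p = 8.85e-08), and Hoxa11 had 424, 537 and 637, against 829, 916 and 1194 (-0.83 ± 0.11, adjusted p = 2.48e-05). None of these ranges overlapped. Without normalization between arrays, Hoxa11 was no longer called (-0.38, adjusted p = 0.21), nor were Hoxc8 (-0.45, adjusted p = 0.146) and the second Hoxa10 probe set (-0.35, adjusted p = 0.289). Hoxa9 and Hoxa10 in the mineralized zone lay between the other zones.

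Hoxc8 had 106, 131 and 144 in the mineralized zone, against 190, 285 and 326 in the resting/proliferating zone, without overlap (-0.93 ± 0.15, limma adjusted p = 0.000111). Hoxc10 had 295, 336 and 603, against 475, 550 and 744, with overlap through the array of vehicle culture 2 at 603 (-0.63 ± 0.15, adjusted p = 0.00302). Its call was lost without culture 3 (-0.58, adjusted p = 0.0507) and without culture 4 (-0.49, adjusted p = 0.0586), with the fluidics run as a block (-0.53, adjusted p = 0.0825) and without normalization between arrays (-0.15, adjusted p = 0.643). Hoxc5 had 47.3, 60.8 and 82.4, against 72.0, 119 and 204 (-0.78 ± 0.23, adjusted p = 0.0114), and the call was lost without culture 4 (-0.77, adjusted p = 0.0664), with the fluidics run as a block (-0.45, adjusted p = 0.214) and without normalization (-0.35, adjusted p = 0.303).

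Among those higher, Hoxb2 had 179, 264 and 417 in the mineralized zone, against 36.8, 76.1 and 127 in the resting/proliferating zone (1.64 ± 0.23, limma adjusted p = 2.91e-05). The Hoxd8 probe sets differed by 0.75 ± 0.12 and 0.74 ± 0.20 (adjusted p = 0.000119 and 0.00628). The second lost its call without the 4 arrays of aborted logs, at 0.54 (adjusted p = 0.0871). The remaining calls were the second probe sets of Hoxa10 (1446408_at, -0.83 ± 0.17, adjusted p = 0.000978) and Hoxa9 (1421579_at, -0.50 ± 0.16, adjusted p = 0.0177). This Hoxa9 probe set did not pass in 9 of 32 other settings.

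Beside this pair of zones, the macrophage and osteoclast markers summed to 35543 to 38491 in the mineralized zone, against 2805 to 6064 in the resting/proliferating zone. Endothelial markers summed to 2452 to 2937, against 552 to 900, and osteoblast markers to 27041 to 39565, against 10210 to 14590. The list of perichondrium, tendon and fibroblasts overlapped between these zones, at 21963 to 24344 against 21605 to 25476. Of its 7 genes, 1 was called higher and 3 lower. The actin ratio was 1.59 to 1.87, against 2.44 to 4.85. The part of these in the Hox differences was not tested.

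**Figure D2:**
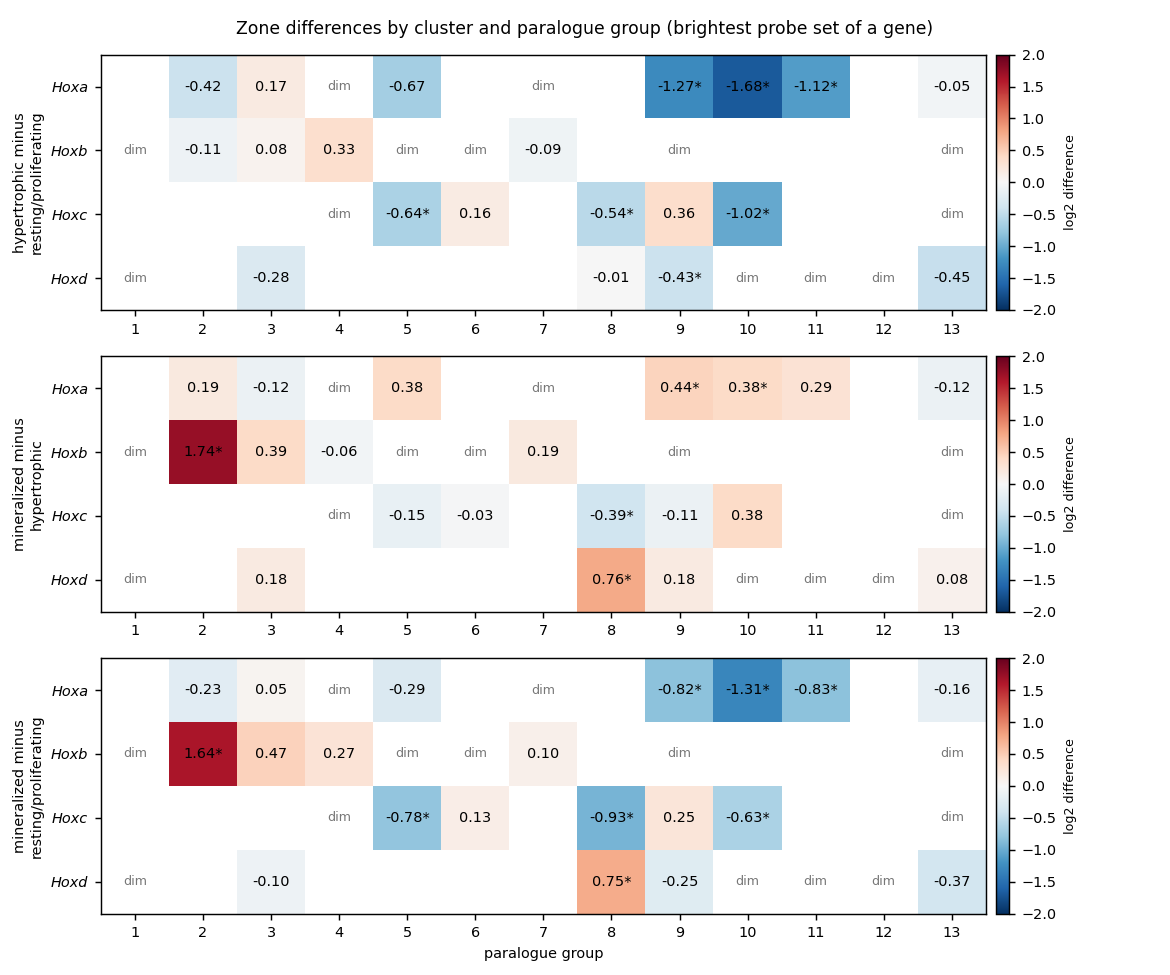
Log2 differences between zones, in colour and in figures, by Hox cluster and paralogue group, for the probe set of each gene with the highest mean that names no other gene, with an asterisk for adjusted p under 0.05 and "dim" where no probe set of the gene was tested; blank cells hold no gene measured by a probe set of its own. In the top map the called values lie in groups 5, 8, 9, 10 and 11, from -1.68 for Hoxa10 to -0.43 for Hoxd9, and in the lower maps Hoxb2 stands out at 1.74 and 1.64.

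Each treatment was also taken alone. In CNP cultures 8 of the 30 probe sets were lower in the hypertrophic against the resting/proliferating zone, where 24.9% of all probe sets tested were called (12.4% higher and 12.5% lower). In vehicle cultures 8 were lower too, where 18.6% were called (9.85% higher and 8.75% lower). Hoxa10 (1431475_a_at) differed by -1.59 ± 0.20 in CNP cultures and -1.78 ± 0.20 in vehicle cultures, and Hoxa9 (1455626_at) by -1.32 ± 0.09 and -1.21 ± 0.09 (SE, 3 cultures each). Hoxb2 in the mineralized against the hypertrophic zone differed by 2.01 ± 0.33 in CNP cultures (adjusted p = 0.000223) and 1.47 ± 0.33 in vehicle cultures (adjusted p = 0.00386). There, 5 probe sets were higher in CNP cultures and 4 in vehicle cultures, where 32.6% (15.9% higher and 16.7% lower) and 23.6% (11.6% higher and 12.1% lower) of all probe sets tested were called. Over the mineralized against the resting/proliferating zone the counts were 4 higher and 6 lower in CNP cultures, where 36.7% of all were called (17.9% higher and 18.8% lower). They were 2 higher and 4 lower in vehicle cultures, where 30.9% were called (15.1% higher and 15.7% lower).

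Some calls were made in one treatment alone. In CNP cultures these were Hoxa2 and Hoxc8 for the first zone pair, Hoxb3 and Hoxa10 for the mineralized against the hypertrophic zone, and Hoxb3, Hoxc10 and the second probe sets of Hoxa10 and Hoxd8 for the mineralized against the resting/proliferating zone. In vehicle cultures they were Hoxa5 and Hoxd9 for the first pair and the second Hoxd8 probe set for the mineralized against the hypertrophic zone. Hoxa2 was lower in the hypertrophic against the resting/proliferating zone of CNP cultures (-0.69 ± 0.24, limma adjusted p = 0.0478), and Hoxa5 (1443803_x_at) in that of vehicle cultures (-1.58 ± 0.48, adjusted p = 0.0313). Hoxb3 (1456229_at) was higher in the mineralized against the hypertrophic zone of CNP cultures (0.92 ± 0.30, adjusted p = 0.0298). The difference of these zone effects between treatments was itself tested, and 0 of 30 members passed for any of the 3 zone pairs by limma. Of all probe sets tested, 0.167% were called for the hypertrophic and resting/proliferating pair (0.0555% higher and 0.111% lower), 0.0666% for the mineralized and hypertrophic pair (0.0444% higher and 0.0222% lower) and 0% for the third pair. At an unadjusted p under 0.05 the counts were 1, 1 and 2. The smallest adjusted p was 0.367, for Hoxa5 (1443803_x_at).

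The question of the CNP arm was whether the peptide changed Hox expression within a zone. By limma, 0 of the 30 probe sets were called in the resting/proliferating, hypertrophic or mineralized zone or in the mean of the zones. Over all probe sets tested, 0.0259% were called in the resting/proliferating zone (0.0111% higher and 0.0148% lower) and 1.62% in the hypertrophic zone (0.522% higher and 1.1% lower). In the mineralized zone 0.0037% were called, all lower, and in the mean of the zones 0.0148% (0.0074% higher and 0.0074% lower). At an unadjusted p under 0.05, 2, 3, 3 and 4 members passed, against 12.1%, 13.8%, 3.36% and 11.6% of all probe sets tested. The medians over the members were -0.02, -0.11, 0.00 and -0.02 on the log2 scale. With 3 arrays a group, differences below the interval of each probe set could not be seen.

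Hoxa5 (1443803_x_at), a gene of the neck and chest region and of the lung, came nearest. In the hypertrophic zone it had 852, 1533 and 866 in the CNP arrays of cultures 2, 3 and 4, against 734, 192 and 331 in the vehicle arrays. In the mineralized zone it had 1414, 1410 and 1201 with CNP, against 562, 915 and 221 with vehicle. In both zones each CNP array lay above each vehicle array, whereas in the resting/proliferating zone the signals of 1225, 455 and 1219 with CNP overlapped those of 1133, 910 and 1355 with vehicle.

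The log2 difference of this probe set was 1.48 ± 0.47 in the hypertrophic zone (limma adjusted p = 0.128), 1.43 ± 0.47 in the mineralized zone (adjusted p = 1.00) and 0.86 ± 0.17 in the mean of the zones (adjusted p = 0.15). The adjusted p for the hypertrophic zone was 0.0661 to 0.422 over the other settings. The other Hoxa5 probe set (1448926_at) disagreed. It had 185, 232 and 220 with CNP, against 245, 268 and 202 with vehicle, in the hypertrophic zone, a difference of -0.15. Probe sets with an x in the name hold probes that also match other sequences.

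Hoxa9 (1455626_at) was lower with CNP by a small amount in each zone. Its arrays read 3742, 3870 and 4055 with CNP, against 4183, 4235 and 4222 with vehicle, in the resting/proliferating zone. In the hypertrophic zone they read 1544, 1577 and 1517, against 1787, 1841 and 1806. In the mineralized zone they read 2262, 2142 and 1993, against 2658, 2429 and 2251. The groups did not overlap in the first 2 zones named. The log2 difference in the hypertrophic zone was -0.23 ± 0.09 (limma adjusted p = 0.242), and in the mean of the zones it was -0.18 ± 0.07 (adjusted p = 0.342). The other Hoxa9 probe set (1421579_at) did not show this. Its mean in the resting/proliferating zone was 365 with CNP and 351 with vehicle. In the hypertrophic zone the means were 212 and 214, and in the mineralized zone 251 and 249.

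Hoxa10 (1431475_a_at) had 2035, 2763 and 1180 with CNP in the resting/proliferating zone, against 2939, 3162 and 2781 with vehicle. The groups did not overlap, and the difference was -0.65 ± 0.25 (limma adjusted p = 0.306). Only without the CNP array of culture 3 did it pass, at -0.92 (adjusted p = 0.0457). The actin 3'/5' ratios of these arrays were 4.76, 2.55 and 4.85 with CNP and 3.05, 2.44 and 2.63 with vehicle, so the lower Hoxa10 signals stood on the arrays with the higher ratios. Their part in the difference was not tested. In the hypertrophic zone its arrays read 786, 544 and 538 with CNP, against 824, 1099 and 682 with vehicle (-0.46 ± 0.25, adjusted p = 0.43). The other Hoxa10 probe set (1446408_at) went the other way in the resting/proliferating zone. It had means of 194 with CNP and 172 with vehicle there, with overlap. In the hypertrophic zone its means were 60.8 and 75.5, lower with CNP, also with overlap.

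Other members with a small unadjusted p were Hoxd3 (1437664_at) in the hypertrophic zone, with 109, 122 and 128 under CNP against 54.4, 65.2 and 82.6 under vehicle (0.72 ± 0.24, limma adjusted p = 0.156), and Hoxb3 (1456229_at) in the mineralized zone, with 212, 235 and 168 against 54.3, 146 and 150 (0.82 ± 0.29, adjusted p = 1.00). In both probe sets the CNP arrays lay above the vehicle arrays. The probe set naming Hoxd4 and Hoxd3 (1421537_at) went the other way in the hypertrophic zone. It had means of 78.7 with CNP and 92.5 with vehicle, with overlap. The dim Hoxb3 probe set (1427605_at) had means of 51.0 with CNP and 18.6 with vehicle in the mineralized zone, with overlap. The probe set of Hoxb8 and Hoxb7 had 134, 102 and 161 under CNP in the resting/proliferating zone, against 87.3, 60.2 and 107 under vehicle, with overlap (0.57 ± 0.25, limma adjusted p = 0.375). The probe set of Hoxb7 alone (1427494_at) had means of 224 with CNP and 248 with vehicle there, with overlap.

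Beside the hypertrophic zone values stands the marker list of perichondrium, tendon and fibroblasts, which summed to 9745 to 11895 with CNP and 15314 to 17219 with vehicle, with 4 of 7 genes called lower. The macrophage and osteoclast list summed to 3373 to 5024 with CNP and 7343 to 8463 with vehicle. The actin ratio was 2.39 to 3.93 with CNP and 2.20 to 2.36 with vehicle. Their part in the Hox values of this zone was not tested.

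**Figure D3:**
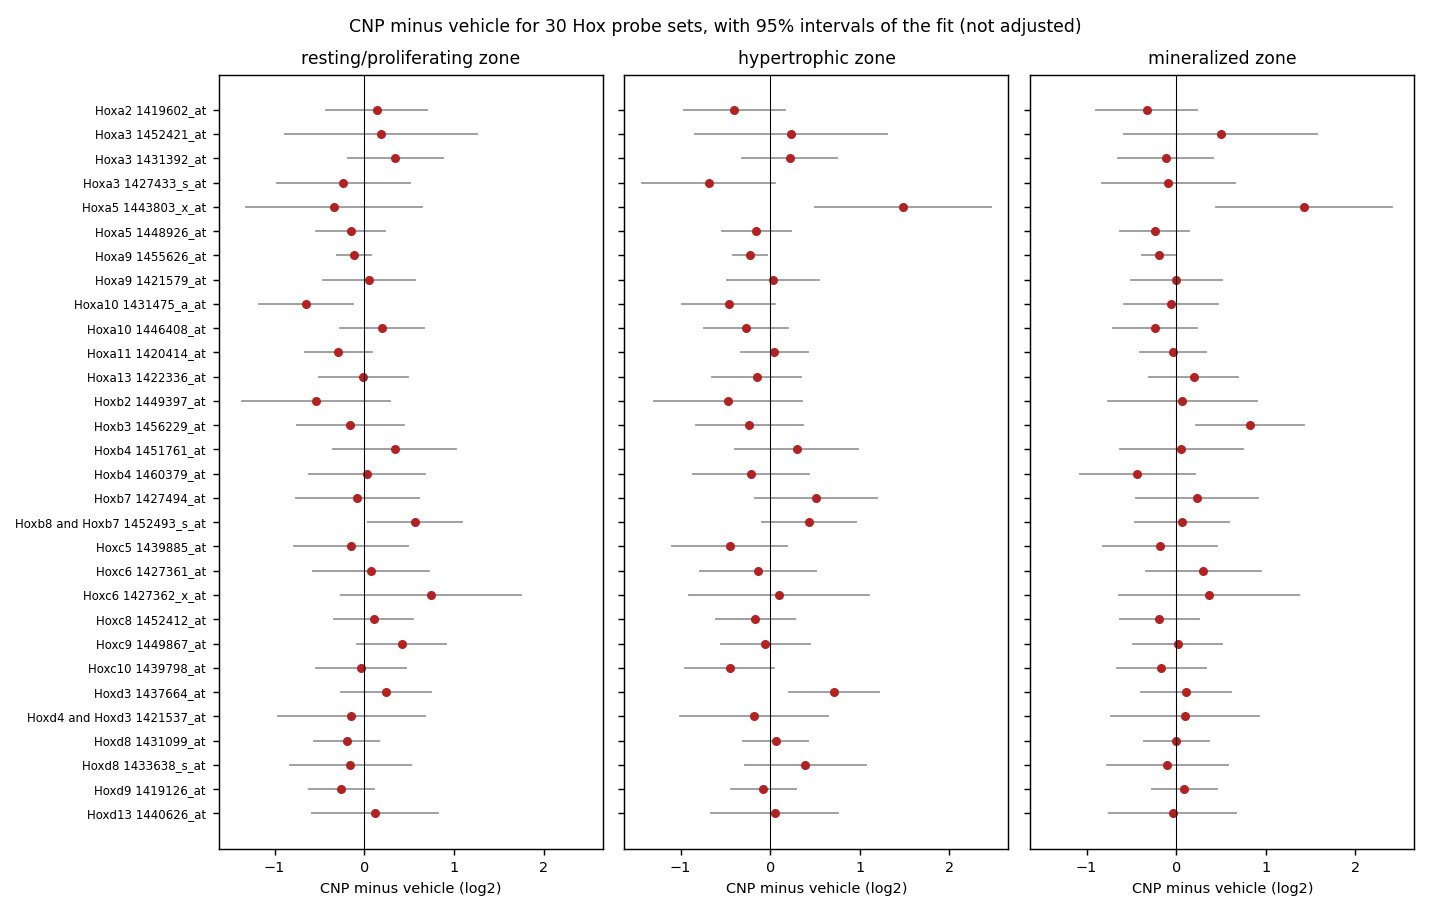
CNP minus vehicle (log2) for the 30 tested Hox probe sets in each zone, with 95% intervals of the limma fit before adjustment for multiple tests. Most intervals cross 0, and those of Hoxa5 1443803_x_at in the hypertrophic and mineralized zones lie farthest from it, at 1.48 and 1.43.

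The 21 dim probe sets are given as a description, since the filter on brightness kept them from the test. Hoxb6 (1451660_a_at) had 39.5 to 52.0 in the mineralized zone, against 2.61 to 14.9 in the resting/proliferating zone and 4.01 to 24.1 in the hypertrophic zone. Hoxb5 (1418415_at) had 11.7 to 100.4 in the mineralized zone, against 6.07 to 10.9 in the resting/proliferating zone. In the hypertrophic zone it had 6.62 to 15.6, which overlaps the mineralized zone. With no filter on dim probe sets, these were higher in the mineralized against the resting/proliferating zone by 1.37 ± 0.16 and 1.09 ± 0.26 on the log2 scale (limma adjusted p = 1.11e-05 and 0.00479). A dim Hoxb3 probe set (1427605_at) was higher by 0.58 (adjusted p = 0.045). These genes belong to the same cluster as Hoxb2. Of that cluster, the dim Hoxb1, Hoxb9 and Hoxb13 probe sets were not called in this fit (adjusted p = 0.359, 0.202 and 0.689). Of the 6 tested Hoxb probe sets, 1 was called between these zones, that of Hoxb2.

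In the same fit Hoxd10 (1418606_at), Hoxc4 and Hoxd12 were lower in the mineralized than in the resting/proliferating zone, by log2 differences of -0.89, -0.70 and -0.61 (limma adjusted p = 0.0126, 0.044 and 0.0268). Hoxd10 read 3.51 to 30.1 in the mineralized zone and 7.49 to 63.3 in the resting/proliferating zone, which overlap. Both Hoxa4 probe sets and those of Hoxa7, Hoxb13, Hoxd1 and Hoxd11 stayed below 50 on every array. The second Hoxd13 probe set (1422239_at) read 2.33 to 46.6, so this gene was read by one of its probe sets alone.

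Non-coding genes of the clusters were covered for 3 of 7 listed. Hoxa11os, the antisense gene beside Hoxa11, was lower in the hypertrophic against the resting/proliferating zone (-1.45 ± 0.17, limma adjusted p = 8.5e-06) and higher in the mineralized against the hypertrophic zone (1.19 ± 0.17, adjusted p = 4.03e-05). Between the mineralized and the resting/proliferating zone its difference of -0.26 ± 0.17 was not called, where Hoxa11 itself differed by -0.83. The other 2, Hoxb5os and Hoxd3os1, were not called between any zones.

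Of the TALE cofactors 1 gene changed between zones. Of 6 tested, 1 was called in the hypertrophic against the resting/proliferating zone, Pknox2, at -1.32 ± 0.16 (limma adjusted p = 9.11e-06), where 33.7% of all probe sets tested were called, and the median was -0.05. The same gene alone was called in the mineralized against the resting/proliferating zone (-1.16 ± 0.16; 46.9% of all called), and 0 of 6 in the mineralized against the hypertrophic zone (40.9% of all called; 0 also at an unadjusted p under 0.05). The Meis1, Meis2, Pbx2, Pbx3 and Pknox1 probe sets, each the one of its gene with the highest mean, were not called between any zones.

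Limb patterning factors, transcription factors and signals that act with the posterior Hox genes in the limb bud, moved in both directions. In the hypertrophic against the resting/proliferating zone 3 of 13 tested were higher and 7 lower, with a median of -0.52, where 33.7% of all probe sets tested were called. Tbx4 (-2.77 ± 0.20), Pitx1 (-1.29 ± 0.13) and Shox2 (-1.22 ± 0.09) were lower, of which Tbx4 and Pitx1 are known for hind limb identity and Shox2 for growth of the upper limb segment. Isl1, which acts at the start of the hind limb, was higher (1.33 ± 0.23). In the mineralized against the resting/proliferating zone 3 were again higher and 7 lower (46.9% of all called), with Tbx2 (2.27 ± 0.17), Prrx1 (1.65 ± 0.12) and Dlx5 (1.49 ± 0.11) higher and Tbx4 lower (-1.60 ± 0.20). In the mineralized against the hypertrophic zone 5 were higher and 1 lower (40.9% of all called).

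**Figure D4:**
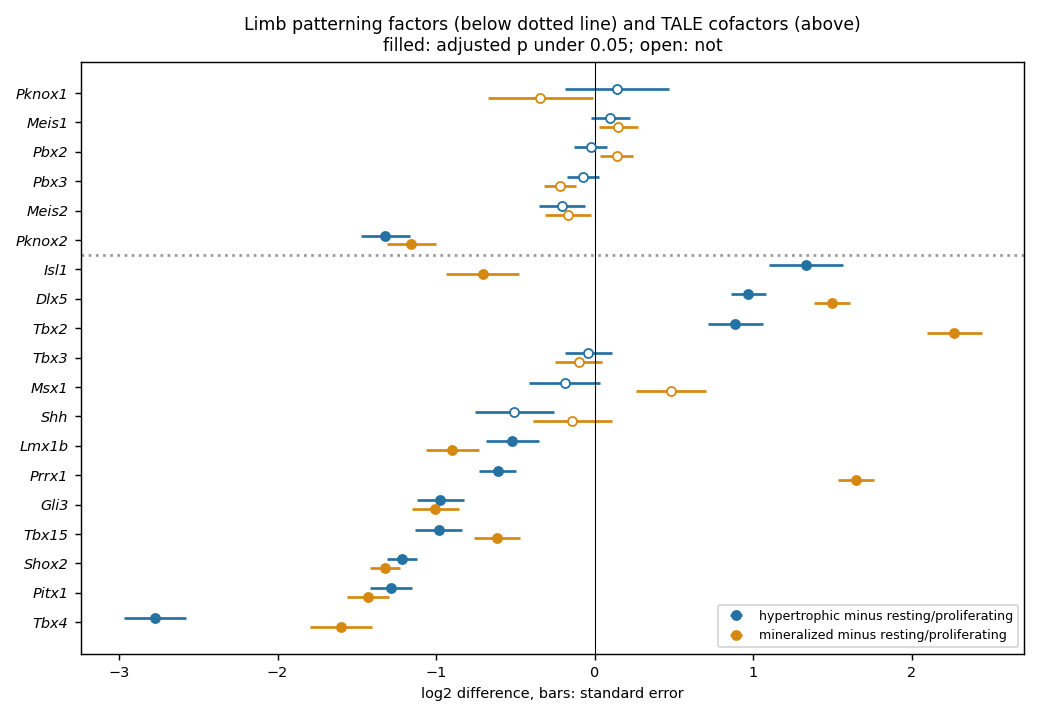
Log2 differences with their standard errors for the hypertrophic and the mineralized against the resting/proliferating zone, for 13 limb patterning factors and 6 TALE cofactors, filled where adjusted p was under 0.05. Tbx4 lies farthest to the left at -2.77, and of the cofactors Pknox2 alone is filled.

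Polycomb and trithorax genes, whose proteins keep Hox clusters silent or active, were listed together with Ctcf, which is in neither group. Genes of this list were called in both directions. Of 17 tested, 3 were higher and 5 lower in the hypertrophic against the resting/proliferating zone, with a median of 0.01 (33.7% of all called). The largest of these were Phc2 (0.64 ± 0.11) and Ezh1 (0.58 ± 0.13), higher, and Men1 (-0.57 ± 0.16) and Ctcf (-0.41 ± 0.11), lower. In the mineralized against the hypertrophic zone 5 were higher and 2 lower (40.9% of all called), and in the mineralized against the resting/proliferating zone 4 were higher and 1 lower (46.9% of all called). The share called lay above that of all probe sets tested in the first of these pairs, near it in the second and below it in the third.

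Genes next to the clusters were also called in both directions. Of 16 tested neighbours, 4 were higher and 3 lower in the hypertrophic against the resting/proliferating zone, with a median of 0.06 (33.7% of all called). Beyond the Hoxa cluster, Skap2, an adaptor of blood cells, was higher (1.08 ± 0.10), as was Snx10, a sorting nexin known from osteoclasts (0.84 ± 0.13). In the mineralized against the resting/proliferating zone 3 were higher and 3 lower, with Snx10 at 3.99 ± 0.13 and Hnrnpa1 at -1.08 ± 0.10, and in the mineralized against the hypertrophic zone 2 were higher and 4 lower. Over all probe sets tested 46.9% and 40.9% were called in these pairs. In none of these 5 lists was a gene called between CNP and vehicle in any zone or in the mean of the zones by limma, and at an unadjusted p under 0.05 between 0 and 4 genes of a list passed.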

How the data were processed

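The authors deposited 1 intensity (signal) value per probe set and array, on a linear scale from 0 to 20519. Per the series' design text GeneSpring 7.2 was used, and which software summarised the probes was not stated. Control probe sets (64) were dropped, leaving 45037. Signals were quantile-normalized, 16 was added, log2 was taken, and the lowest 40% by mean were left out. The 27022 probe sets left were fitted with limma 3.58.1 (R 4.3.3, intensity trend, two-sided). P-values were adjusted by Benjamini-Hochberg over all of them, with calls at adjusted p under 0.05. CNP was tested per zone over 18 arrays in 6 groups, and in the mean of zones over 3 against 3 cultures. Zones were tested with the culture as a block. Of the probe sets, 34945 have 1 gene symbol in the platform annotation, 932 several and 9160 none, and no gene was named from those with several except the members stated. The trimmed mean signal was 158 to 512 per array, and the number of arrays limits the precision. Arrays with the same replicate number deviated together in the resting/proliferating zone (correlations 0.187, 0.378 and 0.154) and in the mean of zones (0.173, 0.337 and 0.213), but not in every pair of the hypertrophic (-0.02, 0.0911 and 0.123) and mineralized (0.137, 0.118 and 0.0621) zones. The labels number the cultures as separate, so p-values of the mean of zones measure the spread between cultures. In the zone fits they measure how much zone differences varied between cultures. In the CNP fits per zone they measure the spread between arrays of a group, pooled over the 6 groups. Those fits count the zones of a culture as separate arrays. Members and lists were chosen with earlier results of these data known. All called members, the 4 with the smallest p where none was called, and up to 4 of each list were named, and the per-array values cover those and groups 11 and 13. Genes of the marker lists and of the other lists were each read by the probe set with the highest mean that names no other gene. Further probe sets of those genes were not looked at. The fits were tested on simulated data.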

Additional observations from a re-analysis of the deposited data

Results flagged for a closer look

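In 12 of 90 sets of 6 arrays of a zone, 1 array stood far from the rest, by the Dixon criterion for 6 values. For independent values of a single normal spread the criterion would flag about 1 in 20 sets. These sets mix both treatments and share arrays, so the count cannot be judged by that rate. In the resting/proliferating zone, Hoxa3 (1431392_at) read 278 in CNP culture 2, where the others read 116 to 125. Hoxa5 (1443803_x_at) read 455 in CNP culture 3, where the others read 910 to 1360. Hoxc6 (1427362_x_at) read 62.3 in vehicle culture 3, where the others read 233 to 468.

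In the hypertrophic zone, CNP culture 2 was the far array for 3 probe sets. Hoxa3 (1427433_s_at) read 9.51 there, where the others read 52.0 to 89.2, Hoxb4 (1460379_at) read 36.7, where the others read 65.9 to 90.4, and Hoxd8 (1433638_s_at) read 324, where the others read 82.6 to 124. Hoxc5 (1439885_at) read 32.5 in CNP culture 3, where the others read 66.7 to 96.3.

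In the mineralized zone, Hoxb4 (1460379_at) read 39.3 in CNP culture 4, where the others read 98.3 to 137. Vehicle culture 2 read 54.3 for Hoxb3 (1456229_at), where the others read 146 to 235, and 603 for Hoxc10 (1439798_at), where the others read 295 to 382. Vehicle culture 3 read low for both Hoxc6 probe sets, at 214 (1427361_at, others 320 to 385) and 176 (1427362_x_at, others 322 to 399).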

How the results depend on the processing

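Counts of called members were within 1.5 times the reported count in 266 of 272 alternatives, and 1047 of 1139 values of single probe sets kept their direction and call. Leaving out arrays gave 0 to 1 calls for CNP in the resting/proliferating zone, the 1 being Hoxa10 without CNP culture 3, 10 to 20 over the zone pairs in vehicle cultures (18 reported, 10 without culture 3) and 14 to 24 in CNP cultures (23 reported, 14 without culture 4). With the fluidics run as a block, an alternative chosen after seeing the data, CNP cultures gave 14. Without normalization between arrays, 17 members were called between the mineralized and hypertrophic zones (6 reported), and Hoxc8 reversed there to 0.125, where the median of all probe sets moved to 0.44. With no filter on dim probe sets, 17 were called between the mineralized and resting/proliferating zones (11 reported), since 51 were tested. Other causes were not tested. The replicate block left the CNP counts at 0, and without the culture block the zone counts were 9, 6 and 11. Hybridization day as a block left the CNP counts at 0, and in the zone fits it is contained in the culture. Leaving out the array with conflicting labels gave 0 CNP calls, as did counting it as CNP. Signals near 63.5 limit what can be read from dim genes.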
